A study of Mus musculus with 12 samples.

Results

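Cluster 7 of the 28W kidney library held 577 of the 7135 cells of that library and of the 20510 cells of the 3 libraries. Its members were chosen by the cluster number that the authors deposited for each cell barcode. The study sorted T cells positive for CD8, CD44 and PD-1 from female NZB/W F1 mice, hybrids of the NZB and NZW strains in which lupus nephritis appears as they age. The 3 groups were 12W spleen (age 12 weeks), 28W spleen and 28W kidney (both age 28 weeks), and the labels name no treatment. For 28W spleen the age given in the labels (12 weeks) goes against the sample titles, which were followed. Each group had 4 samples that were pooled in its tables, so there was 1 library per group, and no difference below has a replicate check. The 4 titles of a group differ only in a lane-like suffix, so the samples may be sequencing lanes and not separate animals. The kidney was minced, digested with collagenase I and passed over Percoll before the sort.

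The proximal tubule is the part of the nephron that takes back most of the filtered phosphate, glucose, amino acids and protein, by apical transporters in its brush border, basolateral transporters and the endocytic receptors megalin and cubilin. Its cells make glucose, are rich in mitochondria and express neither CD3 nor CD8. In lupus nephritis T cells lie around the tubules, and plasma cells that make antibody also collect in the kidney.

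Cluster 7 carried the 6 tubule markers given for it at 16225 counts per 1000000 of its unique molecular identifiers (UMIs, 1 for each captured transcript; the unit is CPM below), against 103 CPM in the other 11 kidney clusters together. This was a 158-fold difference (95% interval 152 to 164), and 89.2% of the marker UMIs of the kidney library (88.8 to 89.5) lay in cluster 7. It also carried T cell transcripts, at 0.678 times their level elsewhere in the kidney, and immunoglobulin transcripts, at 7.75% of its UMIs. The 6 markers were given with the label and the cells were clustered on these genes, so their level describes the cluster and tests nothing. No table separates cells with tubule, T cell and plasma cell transcripts from cells that hold several of these, since the tables used here give cluster means. All intervals are exact 95% Poisson or binomial intervals and cover counting error only.

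Cluster 7 made up 8.09% of the kidney cells (7.46 to 8.74) and 4.95% of the kidney UMIs. It held 1483170 UMIs, or 2570 per cell, where the other kidney clusters ranged from 1200 in cluster 2 to 11404 in cluster 11. Even so, 13907 genes had a UMI in cluster 7, more than in any other kidney cluster. Mitochondrial transcripts were 4.26% of its UMIs, against 10.8% in cluster 2 and 0.515% to 1.50% in the other 10. Ribosomal protein transcripts were 16.2%, above the 7.60% of cluster 2 and below the 17.6% to 36.7% of the rest. Of its 577 barcodes, 3 also occurred in 28W spleen and 1 in 12W spleen. For a gene with 0 UMIs in cluster 7 the floor was taken as 3 counts, or 2.02 CPM.

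**Figure D1:**
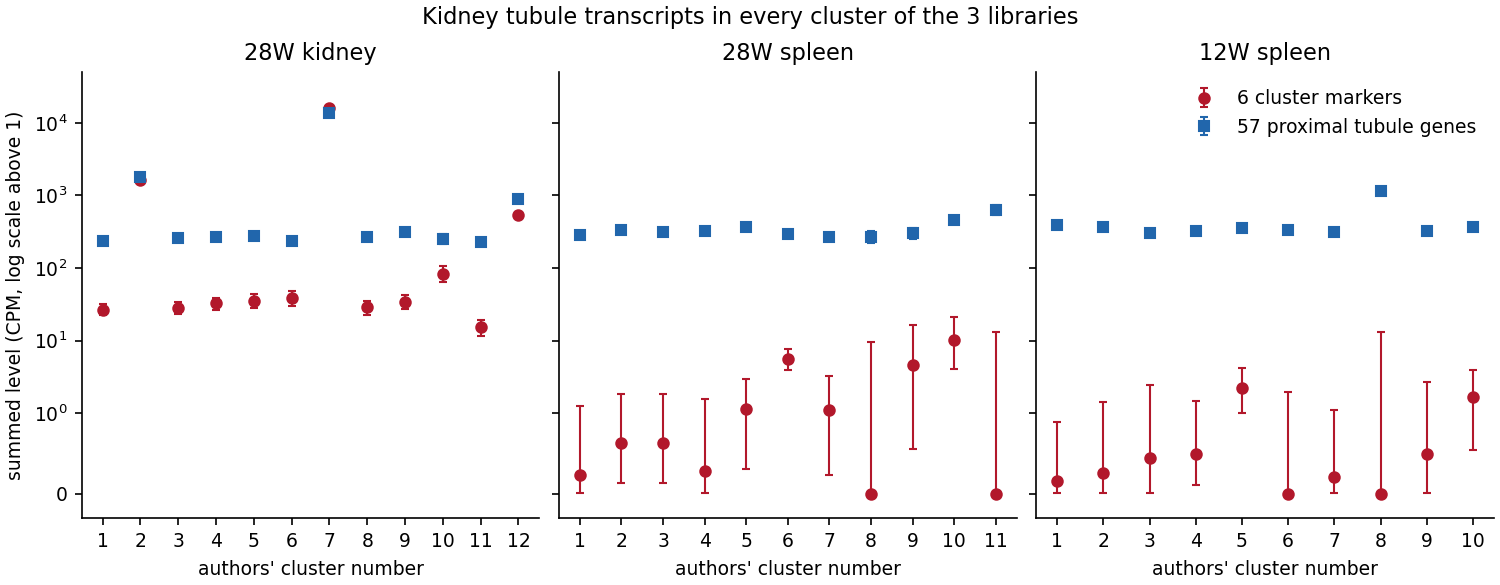
Summed level (CPM, log scale above 1) of the 6 cluster markers (circles) and of 57 proximal tubule genes (squares) in every cluster of the 3 libraries, with exact 95% Poisson intervals. Cluster 7 of 28W kidney stands at 16225 and 13673 CPM, with cluster 2 the next within the kidney, while the highest spleen cluster is at 10.1 CPM for the markers and 1144 CPM (12W spleen cluster 8) for the 57 genes.

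The 6 markers are genes that kidney tubule cells express, not all of them in the proximal tubule alone, and *Spp1* is also made by macrophages. *Gpx3*, the secreted glutathione peroxidase that the proximal tubule supplies to plasma (chromosome 11, 54902453 to 54910377, GRCm38), was at 8049 CPM in cluster 7 (7905 to 8195). In the other kidney clusters it ranged from 4.89 CPM to 927 CPM in cluster 2, with a median of 16.8 CPM, and in the spleens it was at 0.0864 CPM (12W) and 0.281 CPM (28W). The groups did not overlap, and a cell of cluster 7 had 20.7 *Gpx3* UMIs on average against 0.216 in the other kidney cells.

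*Miox*, the inositol oxygenase of the proximal tubule (chromosome 15, 89334398 to 89337015), was at 1611 CPM, against a range of 1.78 to 160.2 CPM in the other kidney clusters, and had no UMI in either spleen. *Fxyd2*, a regulatory subunit of the sodium pump (chromosome 9, 45399669 to 45410278), was at 1808 CPM against 2.14 to 116 CPM. *Slc34a1*, the main phosphate transporter of the brush border (chromosome 13, 55398187 to 55415592), was at 1039 CPM against 0.391 to 202 CPM, again with no UMI in the spleens. In all 3 the highest of the other clusters was cluster 2, far below cluster 7. *Spink1*, a secreted trypsin inhibitor, was at 1346 CPM, with 94.6% of its kidney UMIs in cluster 7. *Spp1*, which encodes osteopontin (chromosome 5, 104435118 to 104441050), was at 2372 CPM, and there the next cluster was cluster 12 at 404 CPM, the cluster in which the macrophage genes *C1qa* and *Lyz2* were highest.

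Across all genes, 8646 reached 10 CPM in cluster 7 or in the other kidney cells. After adding 10 CPM to both, which understates the change of genes with low levels, 980 of them (11.3%) were at least 2-fold higher in cluster 7 and 222 (2.57%) at least 2-fold lower. The median log2 ratio of all of them was −0.15. The cells were clustered on these same genes, so every ratio of cluster 7 to the other clusters describes the cluster and tests nothing. Of the 980, 31 were immunoglobulin V, D or J segments, 10 immunoglobulin constant genes and 13 mitochondrial genes, while none was a T cell receptor segment. Among the 949 that were not V, D or J segments, 191 had no UMI in either spleen library.

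**Figure D2:**
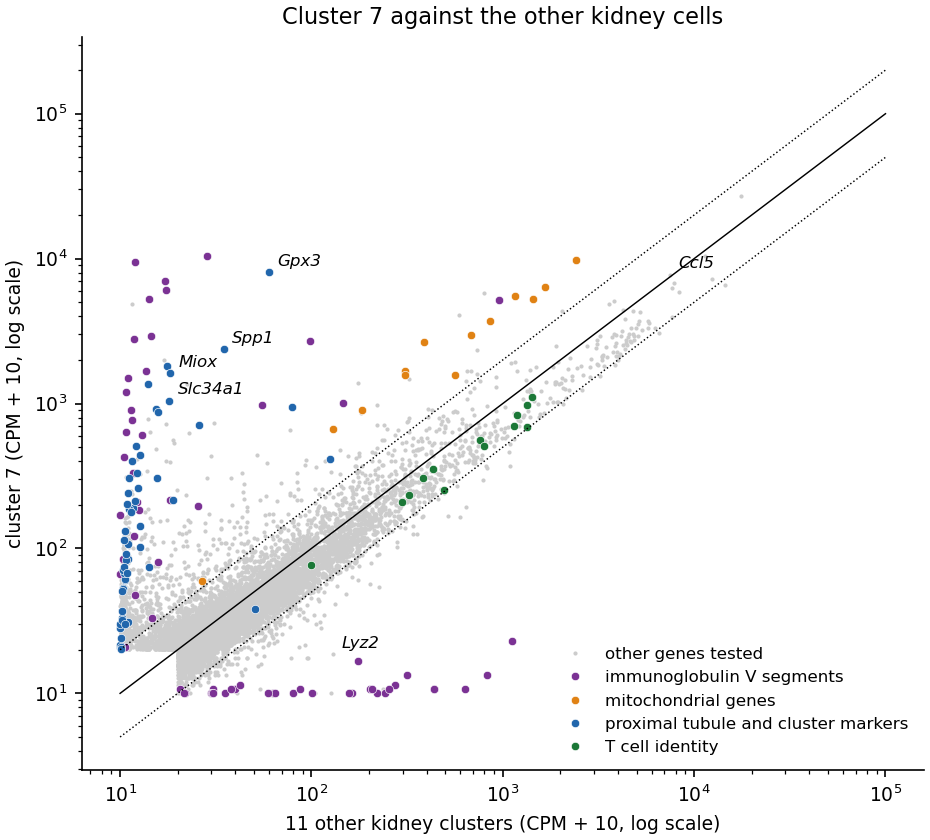
Level of each of 8646 genes in cluster 7 against the other 11 kidney clusters (CPM plus 10, both axes on a log scale). The solid line marks equal levels and the dotted lines a 2-fold difference; proximal tubule genes and markers (blue) lie above the upper line except *Dpp4* and *Slc9a3*, T cell identity genes (green) lie between the lines, and immunoglobulin V segments (purple) lie far to both sides.

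The 25 genes with the highest ratio among those with at least 50 CPM, V segments, predicted genes and mitochondrial genes left out, were led by *Gpx3*, *Ighg2b*, *Fxyd2*, *Spink1*, *Miox* and *Spp1*. Of these *Ighg2b* alone, an immunoglobulin heavy chain constant gene, is no tubule marker. After the markers came *Igfbp7*, a secreted binding protein for insulin-like growth factors, at 1352 CPM against 12.3 CPM. *Pck1*, which commits carbon to making glucose, was at 870.4 against 5.76 CPM. *Tmem27* (collectrin), which brings amino acid transporters to the apical membrane, was at 629.7 against 4.39 CPM. Others in the group were *Pdzk1ip1* (769 CPM), *Ndrg1* (715 CPM), *Timp3* (523 CPM), *Cd63* (553 CPM) and *Ttr*, the carrier of thyroid hormone and retinol-binding protein, at 303 CPM with 95.3% of its kidney UMIs in cluster 7.

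Proximal tubule genes were listed by role in 5 lists with 57 genes in all. Of these 54 had a UMI in the kidney and 53 reached 10 CPM, of which 51 were at least 2-fold higher in cluster 7 and 0 lower, against 11.3% and 2.57% of all genes. Their median log2 ratio was 2.99, against −0.15 for all genes. Together they stood at 13673 CPM in cluster 7 and 332 CPM in the other kidney clusters, a 41.2-fold difference (40.2 to 42.2), or 35.1 against 1.44 UMIs per cell. Cluster 7 held 68.2% of their kidney UMIs (67.7 to 68.8). The exceptions were *Dpp4*, a peptidase that T cells also carry as CD26, at 28.3 against 40.8 CPM, and *Slc9a3*, the sodium-proton exchanger, at 10.1 against 0.105 CPM with 15 UMIs and a log2 ratio of 0.99. *Slc7a13*, *Slc22a7* and *Mep1b* had no UMI in the kidney, and *Slc5a1* had 3 in cluster 7.

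Among the apical transporters, 11 of 12 that reached 10 CPM were higher, with a median log2 ratio of 2.52. *Slc5a2*, the glucose transporter SGLT2 of the early proximal tubule, was at 168 CPM against 1.44 CPM, whereas *Slc5a1*, the SGLT1 of the late segment, had 3 UMIs in cluster 7. Both chains of the cystine transporter were present, *Slc3a1* at 72.8 CPM (108 UMIs) and *Slc7a9* at 41.1 CPM (61 UMIs), with 0.703 and 0.176 CPM elsewhere. The urate transporter *Slc22a12* was at 58.0 CPM, the neutral amino acid transporter *Slc6a19* at 42.5 CPM and the second phosphate transporter *Slc34a3* at 22.2 CPM, each at 0.422 CPM or less elsewhere. Per cell these are small numbers: the whole apical list came to 4.24 UMIs in an average cell of cluster 7.

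All 10 basolateral genes that had UMIs were higher, with a median log2 ratio of 3.14. *Slc4a4*, the sodium bicarbonate exporter, was at 320.3 against 2.21 CPM. The organic anion transporters *Slc22a8* and *Slc22a6* were at 202 and 61.4 CPM, against 1.97 and 0.316 CPM, without a UMI in the spleens. *Atp1b1*, a subunit of the sodium pump, was at 298 against 5.55 CPM.

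The endocytic genes were all higher. *Lrp2*, which encodes megalin, was at 251 against 2.35 CPM, *Cubn* (cubilin) at 74.2 against 1.02 CPM, and *Amn*, the partner of cubilin, at 122 against 0.633 CPM. The adaptor *Dab2* was at 91.7 against 2.78 CPM, and for it cluster 12, at 59.7 CPM, came next. Of 8 brush border enzymes 7 were higher, at lower levels: *Ggt1* was at 64.7 CPM, *Dpep1* at 50.6, *Enpep* at 22.9 and *Anpep* at 20.9, while *Mme* had 16 UMIs.

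All 19 genes of tubule metabolism were higher, with a median log2 ratio of 4.23. Among the enzymes of making glucose, *Pck1* is given above, *Fbp1* was at 496 against 2.11 CPM and *G6pc* at 179 against 1.62 CPM. *Khk*, which starts the use of fructose, was at 207 against 8.89 CPM. *Gatm*, which makes the precursor of creatine, was at 703 against 16.0 CPM, with 307 CPM in cluster 12. *Keg1* and *Acsm2*, acyl transfer and acyl-CoA enzymes of kidney, were at 394 and 428 CPM. *Cyp2e1* (30 UMIs), *Agxt2* (27 UMIs) and *Akr1c21* (17 UMIs) were scarce in cluster 7, and the other kidney clusters together held 1, 1 and 0 UMIs of them.

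Genes of fatty acid oxidation, redox defence and oxidative phosphorylation were described in the same way, against the 11.3% of all genes that were higher and the 2.57% that were lower. Of 11 genes of fatty acid oxidation 6 were higher (median log2 ratio 1.30), led by the peroxisomal *Acaa1b* at 69.4 against 0.949 CPM, while *Hadha*, *Hadhb* and *Acadl* of mitochondria had log2 ratios of 0.20, 0.24 and 0.37. Of 10 redox genes 8 were higher (median 1.53), and without *Gpx3* it was 7 of 9 (median 1.48). Without *Gpx3* the list was at 3206 CPM in cluster 7, while cluster 12 stood at 3531 CPM with *Gpx3* included. *Gpx1* was at 1471 against 314 CPM and the metallothionein *Mt1* at 321 against 33.4 CPM, though *Gpx4* (log2 ratio 0.96) and *Gclc* (0.16) were not called. All 13 mitochondrial genes were higher, with a median log2 ratio of 2.12, and each was highest in cluster 2 and not in cluster 7. Nuclear genes of oxidative phosphorylation differed from this: they came to 4.19% of the UMIs of cluster 7, the highest of the 12 clusters, and to 0.815% in cluster 2. Of 81 such genes 17 were higher and 0 lower, with a median log2 ratio of 0.69.

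**Figure D3:**
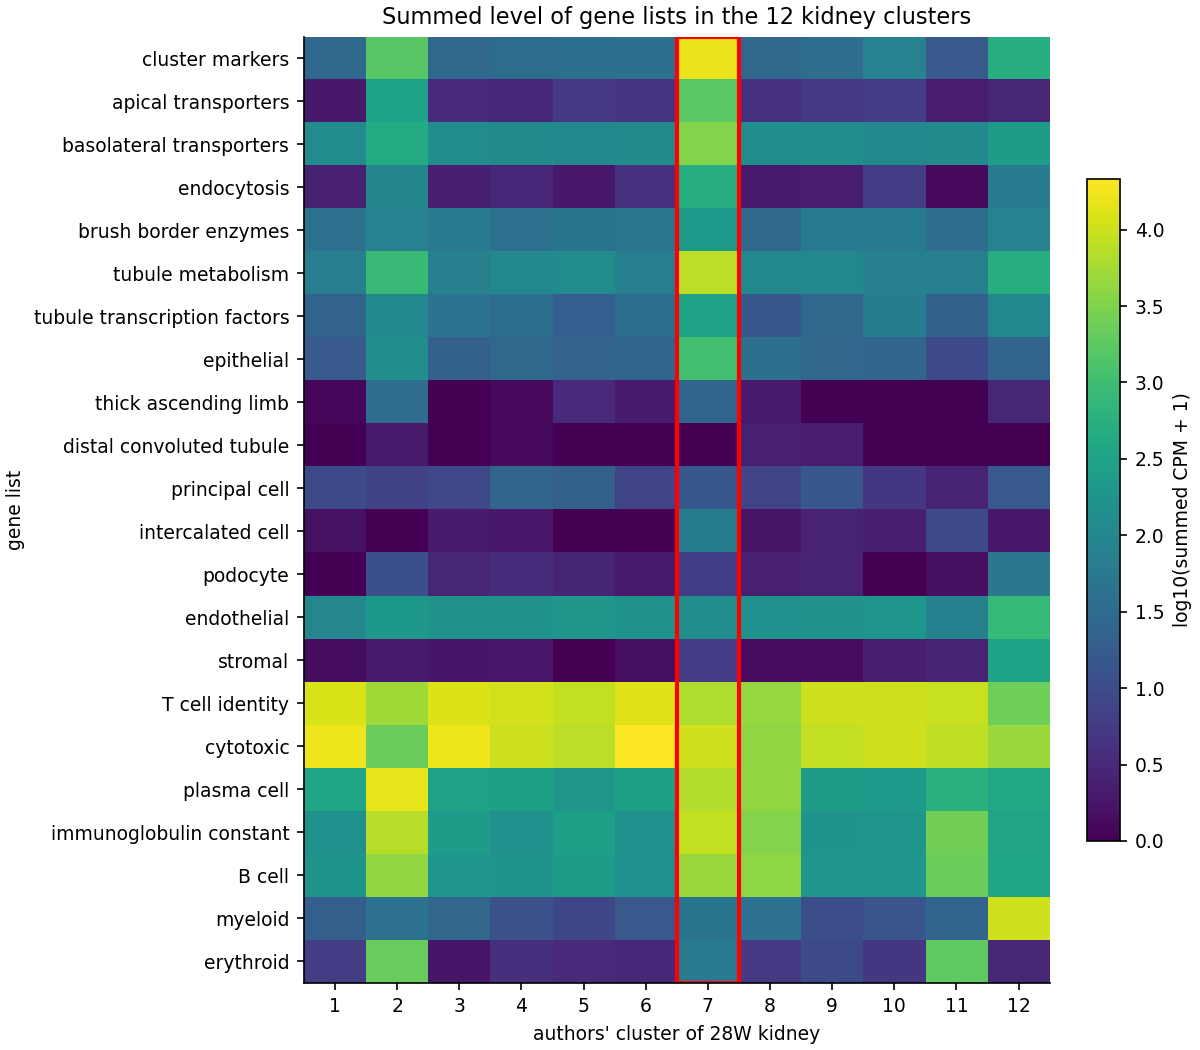
Summed level of 22 gene lists in the 12 kidney clusters, as log10 of CPM plus 1, with cluster 7 outlined. Cluster 7 is highest for the markers and the proximal tubule lists and holds T cell and cytotoxic genes as well, while cluster 2 is the other cluster with both tubule and plasma cell genes and cluster 12 holds the myeloid genes.

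Genes listed as tubule transcription factors were present at low levels. Of 7 that reached 10 CPM, 7 were higher, against 11.3% of all genes, with a median log2 ratio of 1.73. *Hnf4a* was at 53.3 CPM (79 UMIs) against 0.562 CPM, *Pax8* at 29.7 CPM and *Ppara* at 26.3 CPM. *Maf*, which is also expressed in myeloid and T cells, was at 130.1 CPM against 32.3 CPM, where the whole list came to 301 against 33.8 CPM. HNF4, the factor that *Hnf4a* encodes, binds a short motif near the promoters of many tubule genes, and RefSeq promoter windows (GRCm38.p6, from 250 bases before to 50 bases after each start) were searched on both strands for its letters, CAAAGTCCA. Of 60 tubule genes and markers 47 had a window. The motif was in 2 of 47 (4.26%), *Slc3a1* and *Agxt2*, and in 150 of 27025 genes overall (0.555%). A match describes letters and not a bound site. The 250 bases before the start of *Slc3a1*, the cystine transporter chain given above, are shown because they hold a match, in capitals, 39 bases before the start. They lie at chr17:85028097-85028346 on the plus strand.
Slc3a1: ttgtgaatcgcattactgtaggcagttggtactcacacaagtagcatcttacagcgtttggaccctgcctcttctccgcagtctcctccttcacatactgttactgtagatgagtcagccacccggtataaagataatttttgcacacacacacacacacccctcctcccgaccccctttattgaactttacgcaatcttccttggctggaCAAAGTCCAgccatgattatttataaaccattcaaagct

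Lists for other kidney cells had few UMIs in cluster 7, but not all were near 0. For the distal convoluted tubule, *Slc12a3* and *Pvalb* had 0 UMIs in cluster 7. For the thick ascending limb, *Umod* had 22 UMIs (14.8 CPM, against 12.4 CPM in cluster 2), *Slc12a1* 6 and *Kcnj1* 0. That list was at 24.3 against 1.65 CPM, 14.7-fold higher (9.25 to 23.2), and its 1 gene that reached 10 CPM, *Umod*, was called higher. Cluster 7 ranked 2 of 12 for the list, behind cluster 2 at 34.1 CPM. Podocyte genes came to 8 UMIs in all and principal cell genes to 22 UMIs, of which 16 were *Aqp3*, a water channel that T cells of the spleens held as well. The intercalated cell list had 95 UMIs, and both of its genes that reached 10 CPM were higher. *Atp6v1g3*, a proton pump subunit, had 55 UMIs in cluster 7, 15 in the other kidney clusters and 36 and 31 in the spleens, *Slc4a1*, the chloride exchanger shared with red cells, had 28 and 31, and *Aqp6* had 9 and 0. The endothelial list had 206 UMIs in cluster 7, at 139 against 167 CPM, and none of its 4 genes that reached 10 CPM was called, with *Plvap* at 26.3 against 16.8 CPM and *Emcn* at 16.9 against 6.08 CPM, both far below cluster 12. Stromal genes came to 7 UMIs.

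Epithelial genes were higher for 6 of 7 that reached 10 CPM, where 11.3% of all genes were. *Cdh16*, the kidney cadherin, was at 158 against 1.02 CPM and *Cldn2*, the claudin of the leaky proximal tubule, at 77.5 against 0.527 CPM, while *Cdh1* had 3 UMIs and *Krt18* 6. The 3 measurable genes of mineral metabolism were higher: *Pth1r*, the parathyroid hormone receptor, at 56.0 CPM, *Kl*, which encodes Klotho, at 50.6 CPM and *Cyp24a1*, which breaks down vitamin D, at 46.5 CPM, with 0.387 CPM or less elsewhere. *Cyp27b1*, which activates vitamin D, had 3 UMIs. The mice were female, so no sex difference was tested, and the list of sex-biased genes was not split by direction of bias. Of the list of sex-biased tubule genes both that reached 10 CPM were higher, *Cyp4b1*, a cytochrome P450, at 97.8 against 1.02 CPM (145 UMIs) and *Prlr*, the prolactin receptor, at 24.9 against 0.527 CPM (37 UMIs). The androgen-driven *Kap* had 9 UMIs in cluster 7 while *Slco1a1*, *Cyp2j13* and *Slc7a12* had none in the kidney.

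Of 10 genes of tubule injury that reached 10 CPM, 6 were higher and 1 lower, where 11.3% and 2.57% of all genes were. Beside *Spp1*, the complement gene *C3* was at 76.2 against 4.11 CPM (108 CPM in cluster 12), *Clu* at 31.0 against 0.597 CPM, and the fibrinogen chains *Fgg* and *Fga* at 33.0 and 30.3 CPM against 0.211 and 0.105 CPM. The best known injury markers were nearly absent. *Havcr1*, which encodes KIM-1, had 5 UMIs, *Lcn2* (NGAL) had 0 and was at 839.8 CPM in cluster 12, and *Krt20* and *Sox9* had 1 UMI each. Of 6 genes by which a tubule cell could meet a T cell and that reached 10 CPM, 2 were higher and 0 lower. Over all genes the shares were 11.3% and 2.57%. The whole list was at 189 against 215 CPM. *Cxcl16*, the ligand of CXCR6, was at 37.8 against 9.45 CPM and *Vcam1* at 16.2 against 2.67 CPM, whereas *Cd274*, which encodes PD-L1, was at 16.2 (24 UMIs) against 26.0 CPM and *Cxcl10* at 21.6 against 42.5 CPM.

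T cell genes were present in cluster 7 at somewhat lower levels. The 13 T cell identity genes came to 6696 CPM against 9876 CPM in the other kidney clusters, and cluster 7 ranked 9 of 12. None was called in either direction, their median log2 ratio was −0.47, and single genes ranged from −0.96 (*Ptprc*, CD45) to −0.28 (*Trbc2*). *Cd3e* was at 969.5 CPM, within the range of 358 to 1848 CPM of the other clusters, and *Cd8a* at 547 CPM, within 160 to 1114 CPM. Per cell the gap was wider, at 17.2 against 42.9 UMIs, since cells of cluster 7 held fewer UMIs. *Pdcd1*, which encodes PD-1 and was used in the sort, was at 120.0 CPM (103 to 139) against 115 CPM. Its interval includes the level elsewhere.

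The kind of T cell transcript was uneven. *Ccl5*, a chemokine of cytotoxic T cells, was at 7745 against 7482 CPM, and the granzymes *Gzmk*, *Gzmb* and *Gzma* had log2 ratios of −0.46, −0.49 and −0.45. Of the 8 cytotoxic genes only the chemokine *Ccl4* was called, at 154 against 366 CPM. Memory genes were lower for 5 of 6 (median −1.19), where 2.57% of all genes were. Among them *Ccr7* was at 22.9 against 81.1 CPM and *Il7r* at 66.1 against 166 CPM. The memory list was at 164 CPM in cluster 7, which ranked 9 of 12. Clusters 1, 6 and 11 were lower still, at 155, 147 and 147 CPM. Clusters 5, 8 and 9 were highest, at 1048, 1015 and 875 CPM. Proliferation genes were lower for 5 of 5 (median −1.56), with *Mki67* at 22.2 against 85.3 CPM, but most of the outside level was in cluster 11, at 484 CPM. Without cluster 11, a comparison added after seeing the data, none of the 5 was lower (median 0.19), and the summed 643 CPM of cluster 7 was above the median of 478 CPM of the other clusters. Interferon-stimulated genes had a median log2 ratio of 0.13 and none was called.

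The T cell receptor beta V segments of cluster 7 were mixed. They came to 1623 UMIs, or 2.81 per cell against 8.70 in the 10 clusters other than 2. The effective number of segments (the inverse of the summed squared shares) was 7.08 against 6.65, and 9 of the 10 most used segments were the same. *Trbv13-2* took 24.4% (22.3 to 26.6) against 23.0%, *Trbv13-1* 19.3% (17.4 to 21.3) against 25.5%, and *Trbv14* 13.1% (11.5 to 14.8) against 8.52%. For alpha V segments the effective number was 30.4 against 33.9.

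Immunoglobulin transcripts set cluster 7 apart from most T cell clusters. They made up 7.75% of its UMIs, 199 per cell, compared with 14.9% in cluster 2, 3.22% in cluster 8, 0.725% in cluster 11 and at most 0.156% in the other 8. *Ighg2b*, a heavy chain constant gene of class-switched cells, was at 1996 CPM against 7.03 CPM, with 93.7% of its kidney UMIs in cluster 7 and 84.8 CPM in cluster 2, the next. *Ighg3* was at 723 CPM and *Ighg2c* at 425 CPM, while *Ighg1* had 1 UMI in cluster 7 and 1248 in the other clusters. *Igha* was at 367 CPM, below the 2045 CPM of cluster 2. *Igkc*, the kappa constant gene, was at 4049 CPM against 3326 CPM in cluster 2 and a median of 58.1 CPM over the 11 other clusters.

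Plasma cell genes followed. This list and the list of constant genes were added after immunoglobulin had been seen to be high. Of 9 plasma cell genes that reached 10 CPM, 6 were higher, against 11.3% of all genes, with a median log2 ratio of 1.40. *Jchain*, which joins IgA and IgM units, was at 5785 CPM (14482 CPM in cluster 2), *Xbp1*, the secretory regulator, at 322 against 74.0 CPM, *Mzb1* at 356 against 96.0 CPM, and *Sdc1*, which encodes CD138, at 28.3 against 4.50 CPM. *Prdm1* was at 12.1 against 12.5 CPM. The B cell gene *Ms4a1*, which plasma cells lose, had 8 UMIs in cluster 7 and was highest in cluster 8. The B cell list as a whole went the other way, at 4740 against 1001 CPM. Cluster 7 ranked 1 of 12 for it, ahead of cluster 2 at 4241 CPM. Of its 6 genes 2 were higher and 1 lower, where 11.3% and 2.57% of all genes were.

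A few V segments made up most of those in cluster 7. Of 65477 kappa V UMIs, *Igkv9-120* took 23.5% and *Igkv4-74* 21.6%, and the leading 5 took 86.6% together. In cluster 2, with 88003 kappa V UMIs, the same segments had 7 and 3 UMIs, and *Igkv3-2*, which led there with 25.3%, had 19 UMIs in cluster 7. None of the 10 most used kappa segments of cluster 7 was among the 10 of cluster 2, nor among the 10 of the 10 remaining clusters together. For heavy chains 2 of 10 were shared with cluster 2. *Ighv1-14* led in both, with 28.8% in cluster 7 and 39.5% in cluster 2, whereas *Ighv2-6* and *Ighv1-53* had 96.0% or more of their kidney UMIs in cluster 7. The mice are not of the strain of the reference genome, V segments and IgG constant genes have close copies, and how far reads were split among them was not tested. Because clustering used these genes too, the separation by segment is part of what made the clusters.

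**Figure D4:**
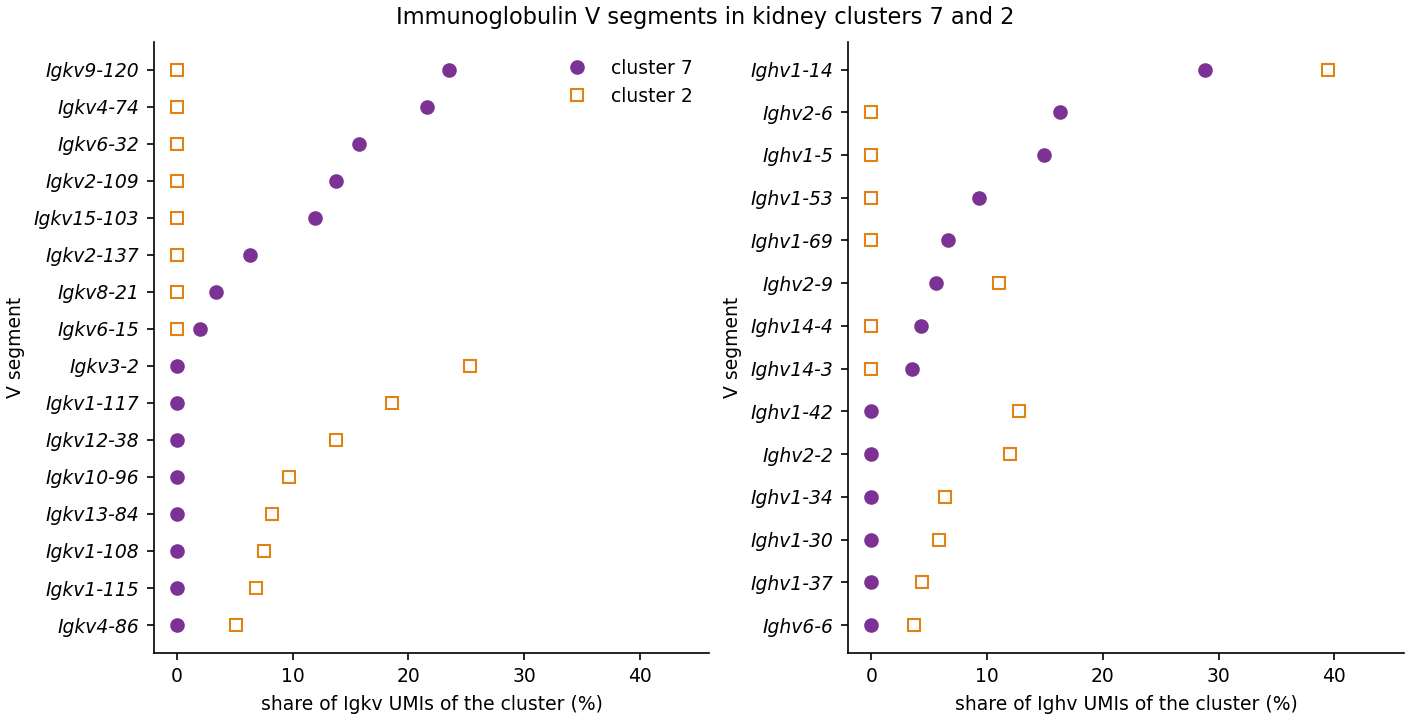
Share of the kappa (left) and heavy chain (right) V segment UMIs of kidney clusters 7 (filled circles) and 2 (open squares), for the 8 most used segments of each. The kappa segments of one cluster are near 0 in the other, while *Ighv1-14* and *Ighv2-9* are used in both.

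Other blood cell genes were lower than in the other kidney clusters together, but the outside level lay in a few clusters. The 10 genes with the lowest ratio were *S100a8*, *S100a9*, *Ngp*, *Camp*, *Lyz2*, *C1qa*, *C1qb*, *C1qc*, *Tyrobp* and *Hbb-bs*. The neutrophil genes *S100a8*, *Ngp* and *Camp* had 0 UMIs in cluster 7, and *S100a9* had 1. Of 6 myeloid genes that reached 10 CPM 4 were lower, with 69 UMIs for the list in cluster 7 and 10491 CPM in cluster 12. At 46.5 CPM cluster 7 ranked 2 of 12, above the median of 19.8 CPM of the other clusters. The erythroid list, at 60.7 CPM, ranked 3 of 12 behind clusters 2 and 11, with a median of 3.87 CPM in the others. Of 4 genes of MHC class II 3 were lower, although *Cd74* stood at 1403 against 1880 CPM. This outside level too lay mostly in clusters 12 and 8, at 46941 and 14243 CPM, and cluster 7 ranked 3 of 12 at 1831 CPM, against a median of 84.8 CPM. Without clusters 8 and 12, a comparison added after seeing the data, all 4 genes of MHC class II were higher in cluster 7 (median log2 ratio 1.88). Of 10 genes that respond to tissue digestion 0 were called higher and 2 lower (*Junb* and *Egr1*), where 11.3% and 2.57% of all genes were, while *Jun* was at 479 against 352 CPM.

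Tubule transcripts outside cluster 7 were compared by their make-up. In the spleens the 57 genes stood at 353 and 318 CPM, but 6 of the genes, which T cells also express, gave 98.7% and 98.3% of these UMIs. The 30 of the 57 that had no UMI in either spleen were at 6342 CPM in cluster 7, and every other kidney cluster held some, from 5.62 CPM in cluster 11 to 862 CPM in cluster 2, with a median of 14.2 CPM. Cluster 7 held 88.3% of their UMIs (87.7 to 88.9). For 44 tubule genes with at most 50 UMIs in the spleens and at least 20 in cluster 7, a choice made after the values were seen, the share of each gene in their sum was set beside that in cluster 2 and in the 10 remaining clusters.

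The order of the shares was close. Spearman's rho over the 44 genes was 0.89 between clusters 7 and 2 (33545 and 2375 UMIs) and 0.78 between cluster 7 and the 10 others (1837 UMIs). These are values across genes, which are not independent, from 1 library. Of the 44 genes, the intervals of the shares overlapped for 28 with cluster 2 and 29 with the others. Intervals on few UMIs are wide and overlap easily, so these counts depend on depth and do not measure likeness. *Agxt2*, *Cyp2e1* and *Anpep*, for example, had 1 UMI each in cluster 2. *Gpx3* took 35.6% in cluster 7, 37.8% in cluster 2 (35.8 to 39.8) and 28.3% in the others. *Slc34a1* took 4.59%, 8.21% and 1.85%, and *Spp1* 10.5%, 5.35% and 31.5%, of which the last included the cluster 12 UMIs. *Slc34a1*, *Slc5a2*, *Slc22a8*, *Lrp2* and *Pck1* took larger shares in cluster 2, with intervals that did not overlap, and likewise *Fxyd2*, *Spink1*, *Fbp1* and *Gsta2* took larger shares in cluster 7. Whether these UMIs came from free RNA or from cells was not tested.

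**Figure D5:**
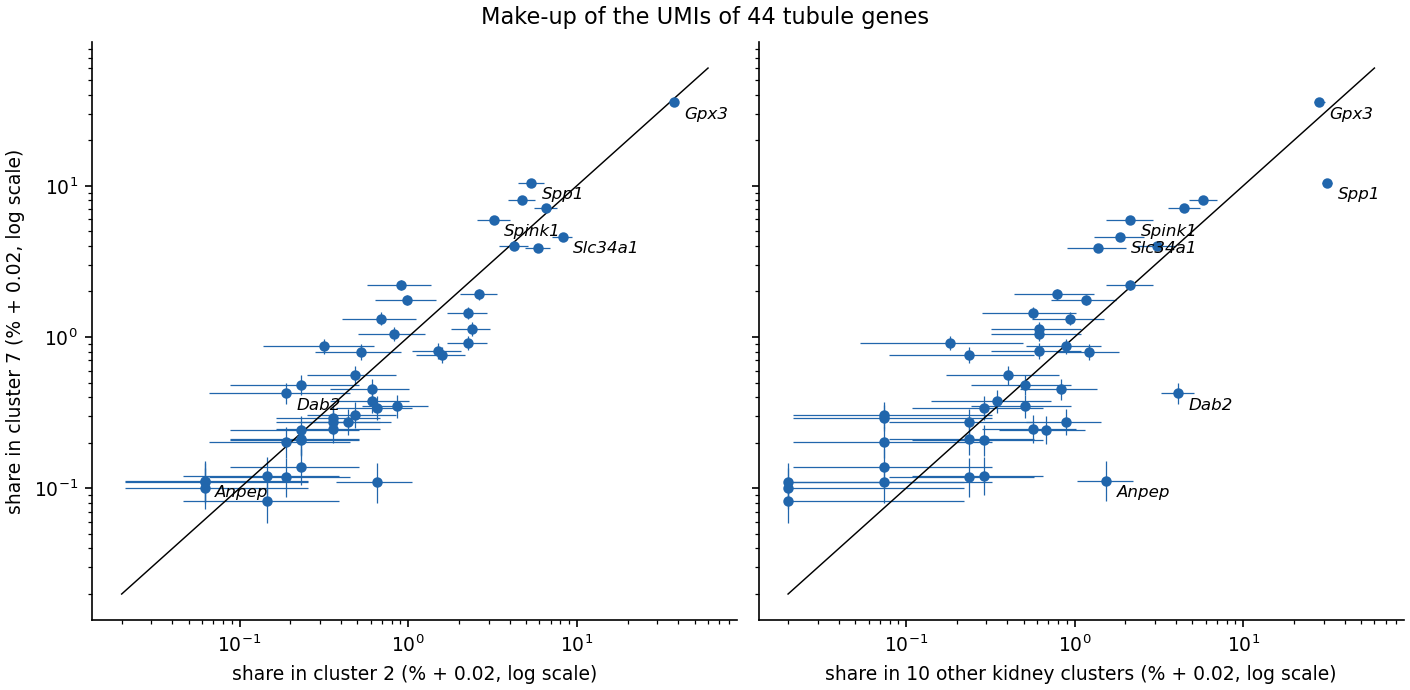
Share of each of 44 tubule genes in their summed UMIs in cluster 7 against cluster 2 (left) and the 10 other kidney clusters (right), in percent plus 0.02 on log scales, with exact 95% binomial intervals. Points scatter around the line of equal shares with cluster 2, and not all intervals reach it. *Slc34a1* is at 4.59% in cluster 7 and 8.21% in cluster 2, and *Spp1* at 10.5% and 5.35%. In the other clusters *Spp1*, *Dab2* and *Anpep* lie to the right of the line.

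Over 8533 genes, V segments left out, the profile of cluster 7 was most like that of cluster 4, with a Spearman's rho of 0.75, and least like that of cluster 2, with 0.60. Without the genes at least 2-fold higher in cluster 7, the values over 7584 genes were 0.90 and 0.67. Those genes were picked for their difference from the same clusters, so higher values follow from the choice and test nothing. All clusters share 1 library, and a shallow cluster such as cluster 2 has noisier values.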

How the data were processed

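Per the labels, sorted cells were made into libraries with Chromium 5′ v2 chemistry. The submitters' processing notes name Cell Ranger 2.1.1, R 3.6.1 and GRCm38. Cell filters, doublet removal and clustering settings are not given in the sources used here, and no doublet caller could be run on cluster means. The deposited files gave each barcode's cluster and, per gene and cluster, a mean UMI count that the authors had normalized so that every column of a library had the same total. They also hold log2 fold changes and adjusted p-values of comparisons by the authors, which were not used. Each deposited mean was a whole multiple of 1 step within 0.001, so UMIs were recovered for 100% of values. A gene that is not listed was taken as 0. CPM is UMIs per 1000000 of a cluster, of the 11 other kidney clusters summed, or of a library.

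The log2 ratio of cluster 7 over the other kidney clusters used a pseudocount of 10 CPM for genes with at least 10 CPM in either, and 2-fold was the call. With 1 library per group no test was run. The 28W kidney library held 29937384 UMIs, 28W spleen 32023473 and 12W spleen 34742303. Each table was normalized on its own. Members, 34 gene lists and the rule for named genes were chosen with earlier results of these data known. That rule took each list's highest, lowest and absent genes, plus the 25 highest and 10 lowest log2 ratios among genes with at least 50 CPM, with receptor and immunoglobulin segments, predicted and mitochondrial genes summed by class. Some genes that met the rule, and a promoter motif, are not reported here. The text names further members of those lists, chosen after their values were seen. Another 2 lists, plasma cell and immunoglobulin constant genes, were added after values were seen. Of 17784 gene IDs, 17756 were found in GENCODE M21. Scripts, tested on simulated data, used Python 3.11.15, pandas 2.3.3, numpy 2.4.6, scipy 1.17.1 and matplotlib 3.10.9. Alternatives were another pseudocount, filter, total, scaling and set of clusters.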

Additional observations from a re-analysis of the deposited data

How the results depend on the processing

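The count of genes at least 2-fold higher in cluster 7 was 978 to 1294 under 5 alternatives and 399 with a filter of 50 CPM. The count of lower genes depended more on the settings, at 662 with a pseudocount of 1 CPM, 130 after scaling to a median log2 ratio of 0 and 138 with the filter of 50 CPM. The median log2 ratio of the proximal tubule genes was 5.37 with a pseudocount of 1 CPM, 3.35 with a total that leaves out receptor, immunoglobulin, mitochondrial and ribosomal genes, and 3.96 with the filter of 50 CPM, and that of T cell identity genes stayed between −0.63 and −0.32. The share of proximal tubule UMIs in cluster 7 was 77.1% and their level outside it 255 CPM without kidney clusters 2, 8 and 12, 72.4% and 281 CPM without cluster 2 (chosen after seeing the data), and 89.2% and 103 CPM for the 6 cluster markers alone. By UMIs, cluster 7 was 4.95% of the library. Median log2 ratios of 4 lists turned from negative to positive without the clusters that held most of the outside level (chosen after seeing the data): proliferation genes from −1.56 to 0.19 without cluster 11, MHC class II genes from −1.56 to 1.88 without clusters 8 and 12, myeloid genes from −2.30 to 0.25 (1 gene left) without cluster 12, and erythroid genes from −2.05 to 1.54 (2 genes left) without clusters 2 and 11. No paired analysis was possible because the tables pool the 4 samples of each group, which may be sequencing lanes. No result comes from a test, and no sample could be left out because of the pooling. Levels near 2.02 CPM in cluster 7, the value of 3 counts, cannot be told from 0.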
